A study of Mus musculus with 22 samples.

Results

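Epithelial cells of mice with eosinophilic esophagitis (EoE) were compared with those of mice with carcinogen-induced esophageal squamous cell carcinoma (ESCC). The comparison holds 7 of the 13 mice of the series and 10 of its 22 samples: 4 mice with EoE and 1 library each, and 3 mice with ESCC and 2 libraries each, which were added together per mouse. Members were chosen by treatment alone, as the sample titles give it. The cells were captured by inDrop, a droplet method in which each captured transcript carries a unique molecular identifier (UMI).

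All mice were wild type C57BL/6. The EoE mice received the vitamin D analog MC903 and ovalbumin (OVA) on scraped ears for 12 days, then OVA by gavage and in drinking water from day 15 to day 32. EoE mice 9 and 10 were young (6 to 8 weeks) and EoE mice 11 and 12 were old (19 to 20 months). ESCC mice 8M, 17F and 17M were 8 to 10 months old and drank 4-nitroquinoline 1-oxide (4NQO) at 100 µg/mL for 16 weeks, followed by 8 weeks without it. Untreated mice, 3 young (3 to 4 months) and 3 old (18 to 20 months), served as controls and are given here as a background range. No mouse of these groups had MC903 alone, so that the ear treatment and the OVA response cannot be told apart. Age, induction time and disease also cannot be told apart between EoE and ESCC. In each mouse the layer rich in epithelium was peeled from the muscle, and each condition was brought to 1500 cells.

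The esophagus is lined by a stratified squamous epithelium. Basal cells, which carry the keratins Krt5 and Krt14 and attach to the basement membrane, divide and give rise to suprabasal cells, which switch to Krt4 and Krt13, and then to superficial cells, which build a cornified envelope from cross-linked proteins such as the small proline-rich (SPRR) proteins. In EoE, a food-antigen-driven type 2 inflammation, basal cells are known to expand and differentiation to be disturbed in patients, and in squamous carcinoma injury keratins, antioxidant genes and growth genes are commonly raised.

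The depth differed between the groups and touches every result. Summed per mouse, EoE mice held 61571 to 85774 UMIs and ESCC mice 1293418 to 2118140, a 23.3-fold difference in the mean per mouse. The median cell held 138 UMIs in EoE, 3099.5 in ESCC and 990 in controls. Of the 1500 EoE cells, 144 met the study's stated limits of 250 to 3500 genes and 100 to 9500 UMIs, with 11 to 57 per mouse, against 1494 of 1500 in ESCC. Results were recomputed among the cells within these limits and with the ESCC counts thinned at random to the EoE depth. Values are given over all deposited cells, as counts per 1e+06 UMIs of the mouse (CPM), in the order of EoE mice 9, 10, 11 and 12 and of ESCC mice 8M, 17F and 17M. A total of 3 UMIs over a group corresponds to 10.1 CPM in EoE and to 0.578 CPM in ESCC. Cell barcodes shared between EoE libraries numbered 0 to 3 a pair and those between EoE and ESCC libraries 0 to 4, while the 2 libraries of an ESCC mouse shared 27 to 52 barcodes (14.9% to 19.9% of the smaller library). In sums per mouse, fewer cells of a type and less RNA per cell cannot be told apart.

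The groups of libraries differed in how reads fell on genes that share sequence. Rps27, a protein of the small ribosomal subunit, has a retrogene copy, Rps27rt. Their coding sequences were identical over all 252 bases, so that a read inside them cannot be placed. The first 90 coding bases (GENCODE M21, GRCm38) are shown because the counts of this pair went opposite ways, and no base is in capitals since none differs. Those of Rps27 lie on the minus strand of chr3:90213218-90213615, introns included, and those of Rps27rt on the minus strand of chr9:114982618-114982707.
Rps27: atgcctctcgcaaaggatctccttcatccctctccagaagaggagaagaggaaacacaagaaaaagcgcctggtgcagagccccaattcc
Rps27rt: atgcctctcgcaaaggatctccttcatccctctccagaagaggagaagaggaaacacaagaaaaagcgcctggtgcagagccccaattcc

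Rps27 stood at 23.3, 25.6, 0 and 13.9 CPM in EoE and at 3633, 3108 and 2679 CPM in ESCC, against 4.94 to 35.6 CPM in controls. The copy Rps27rt stood at 12008, 10735, 10898 and 10622 CPM in EoE and at 687, 577 and 464 CPM in ESCC, against 0 to 3.55 CPM in controls. The groups did not overlap for either gene, and the order of the groups was turned around between the pair. Rpl37, of the large subunit, and its copy Rpl37rt split in the same way, with log2 fold changes of -6.73 and 5.02 (EoE minus ESCC). Controls were low in both Rps27 and Rps27rt, so the 3 groups of libraries gave 3 different splits.

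**Figure D1:**
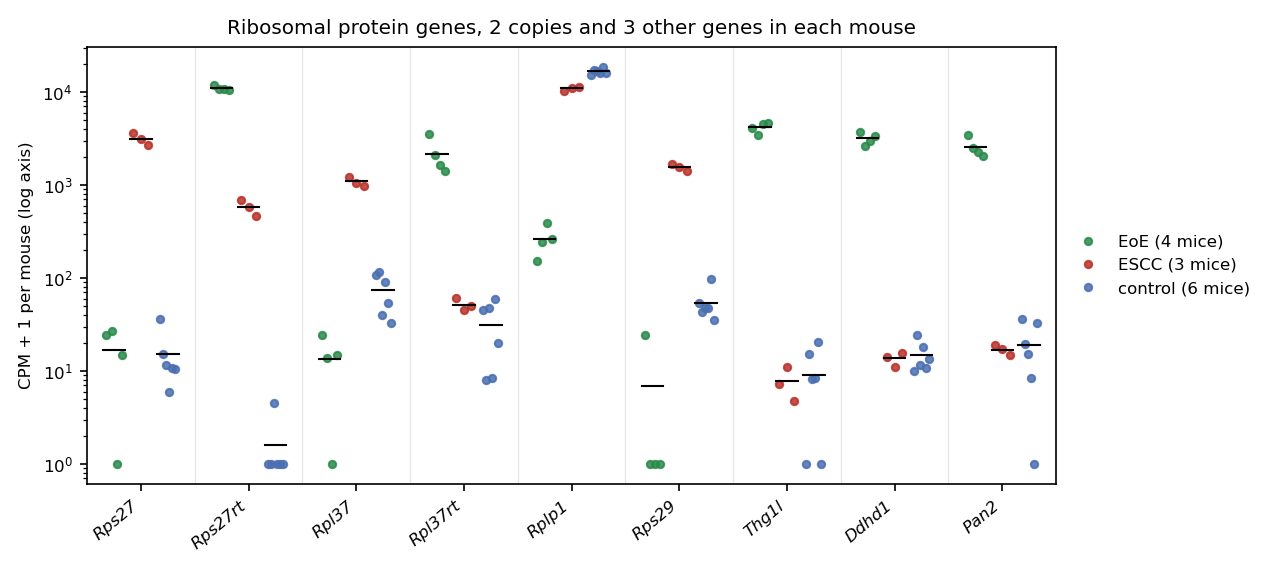
CPM + 1 per mouse (log axis) for ribosomal protein genes, the copies Rps27rt and Rpl37rt, and Thg1l, Ddhd1 and Pan2, with a point for each of the 4 EoE, 3 ESCC and 6 control mice and a black bar at each mean. Rps27, Rpl37, Rplp1 and Rps29 were low in EoE, while Rps27rt, Rpl37rt, Thg1l, Ddhd1 and Pan2 were high in EoE and low in ESCC. In controls Rps27, Rpl37 and Rps29 were also far below ESCC, whereas Rplp1 was high.

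For this reason each gene was marked where its last bases share sequence with another annotated gene, where its exons overlap those of another gene, or where a pseudogene lies within it. A mark does not show that a value is wrong, and a gene without a mark can still share reads. Thg1l, which adds a guanosine to histidine tRNA, carries no mark. It stood at 4092, 3455, 4580 and 4588 CPM in EoE against 6.19, 10.1 and 3.78 CPM in ESCC and 0 to 19.4 CPM in controls. Pan2, a subunit of a deadenylase, and Ddhd1, a phospholipase, had the same order, with log2 fold changes of 6.92 and 7.55. The part of read assignment in any value was not tested. Among the genes described below, shared sequence marks Fabp5, Atp1b3, Itga6, Lamb3, Ppl, S100a11, Serpinb3a, Gclm, Prdx1, Gstp1, Slc7a11, Ube2c, Ccnd1, Junb, Pkm, Ldha, CYTB, Eef1a1, the ribosomal protein genes, H2-K1, H2-D1, Pim1, Gja1, Klf3, Ehf, Anxa4, Ly6a, Insig1 and Hmgcs1. Overlapping exons mark Krt5, Krt10, Slpi, Cdkn1a, Ccnd2, Top2a, Jun, Dusp1, Jak1, Hif1a, Pitx1, Anxa2 and Ly6g6c, and a pseudogene within the gene marks Trp63.

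Of 17541 genes, 1906 had enough UMIs to be tested between EoE and ESCC by edgeR's quasi-likelihood test with Benjamini-Hochberg adjustment at 0.05. Of those tested, 650 (34.1%) were higher and 751 (39.4%) were lower in EoE, and 505 did not pass. The median log2 fold change of all tested genes was -0.10. Scaling by trimmed means (TMM) sets each log2 fold change about 0.29 below its value without that scaling. The fit also takes totals over tested genes alone, 48349 to 67185 UMIs in EoE mice and 954992 to 1528608 in ESCC mice. Against the plain CPM, which are taken over all genes, this lowers each log2 fold change further. Past a 2-fold change lay 492 of the higher and 641 of the lower genes, and past 32-fold 40 and 79. For 1390 of the 1906 genes the 4 EoE mice did not overlap the 3 ESCC mice.

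The shares of genes that passed depend on which genes could be tested. Among the 772 tested genes without a mark, 270 (35.0%) were higher and 263 (34.1%) lower. Only 702 genes reached the required level, 117 CPM or 10 UMIs in a mouse of median depth, in both groups. Of these, 164 (23.4%) were higher and 227 (32.3%) lower. A further 616 genes were tested through their level in EoE alone, of which 486 were higher and 2 lower, and 527 through ESCC alone, of which 0 were higher and 505 lower, as such genes had to differ. The longest annotated transcript had a median of 4318 bases among higher genes, 2296 among lower genes and 4032 among those that did not pass. Among cells within the study's limits, 454 of the 1906 tested genes were higher and 720 lower. Counts for the lists below are to be read beside these shares.

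**Figure D2:**
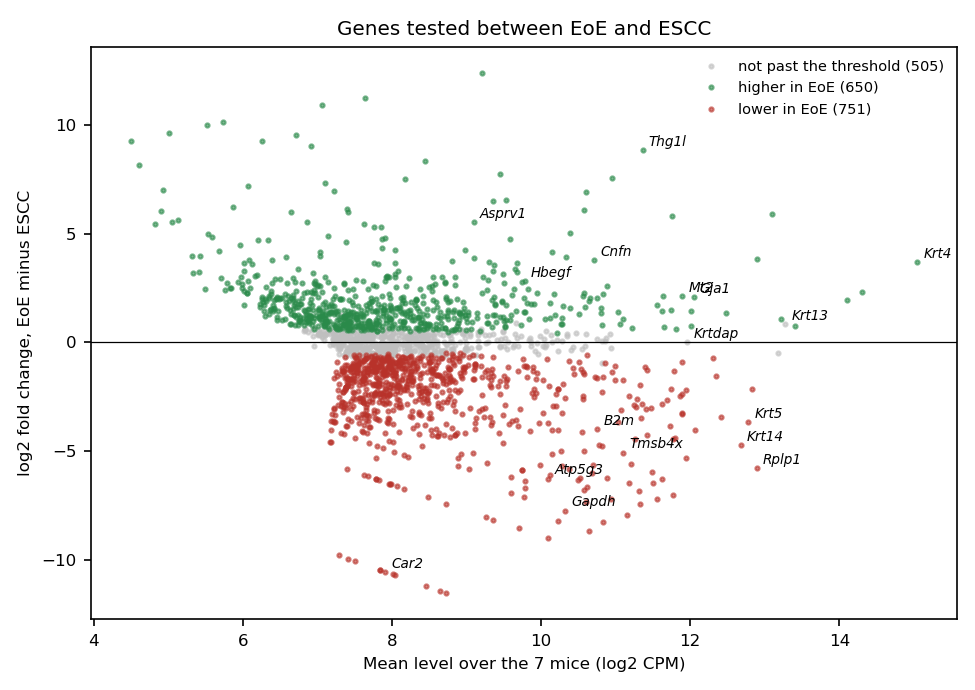
Each tested gene by its mean level over the 7 mice (log2 CPM, x axis) and its log2 fold change, EoE minus ESCC (y axis), with the 650 genes higher in EoE in green, the 751 lower in red and the 505 that did not pass in grey. Krt4, Cnfn and Asprv1 lie above 0 and Krt14, Krt5, B2m and Atp5g3 below it, while Krt13 and Krtdap lie near 0.

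The first question was how the layers of the epithelium compare. Keratin 14 (Krt14; ENSMUSG00000045545; GRCm38 chr11:100203162-100207548), the acidic keratin of basal cells, stood at 618, 397, 471 and 348 CPM in EoE and at 4732, 9532 and 13247 CPM in ESCC. Every EoE mouse lay below and every ESCC mouse above the control range of 1498 to 3338 CPM. The log2 fold change was -4.72 (SE 0.35, adjusted p = 6.644e-08), which fell further to -6.53 among the cells within the study's limits. Its partner Krt5 (chr15:101707070-101712898) showed the same order. It stood at 979, 896, 1218 and 834 CPM in EoE, at 7827, 9376 and 10839 CPM in ESCC and at 3998 to 6690 CPM in controls, with a log2 fold change of -3.65 (SE 0.23, adjusted p = 1.635e-08).

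Over all deposited cells, not all basal genes followed. Krt15, a keratin of basal and progenitor cells, stood at 1236, 896, 1283 and 904 CPM in EoE and at 2962, 1088 and 616 CPM in ESCC, so that the groups overlapped and both lay below the controls (4056 to 6227 CPM). Its log2 fold change of -0.94 (SE 0.41, adjusted p = 0.0542) did not pass, but did at -0.89 with ESCC thinned (adjusted p = 0.0229), at -1.84 among cells within the limits and at -1.15 and -1.32 without ESCC mouse 17F or 17M, and stood at -0.05 without 8M. Col17a1, the hemidesmosome collagen that anchors basal cells, stood at 23.3, 12.8, 65.0 and 83.4 CPM against 748, 915 and 867 CPM, with a log2 fold change of -4.65 (adjusted p = 7.704e-08). Of the 15 genes listed for basal keratins and attachment to the basement membrane, 11 were tested. Of these, 4 were lower in EoE, 0 were higher and 7 did not pass, with a median log2 fold change of -0.22. This share is near the 39.4% of all tested genes that were lower. Of the 9 past the required level in both groups 2 were lower, where 32.3% of all such genes were. Among cells within the limits 9 of the 11 were lower and 0 higher, where 720 of all 1906 tested genes were lower. Itga6, an integrin of hemidesmosomes, stood at -1.52 there (adjusted p = 7.098e-04) against 0.17 over all cells. Lamb3, a laminin chain, was among the lower genes at -1.37, but its groups overlapped and it no longer passed in the old EoE mice alone (-0.71) or with ESCC thinned (-1.08, adjusted p = 0.0532). The list took 0.627% to 0.932% of a mouse's UMIs in EoE, 1.97% to 2.98% in ESCC and 1.36% to 2.09% in controls.

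Krt4, the basic keratin of suprabasal cells, was higher in EoE. It stood at 46179, 55173, 46840 and 44226 CPM in EoE, above the control range (13344 to 33454 CPM), and at 5309, 1468 and 1492 CPM in ESCC, below it (log2 fold change 3.72, SE 0.48, adjusted p = 1.135e-05). Its partner Krt13 did not follow. Krt13 stood at 17838, 13896, 5473 and 4810 CPM in EoE and at 7530, 2962 and 2842 CPM in ESCC (log2 fold change 0.83, SE 0.47, adjusted p = 0.126), with the young EoE mice high and the old EoE mice inside the ESCC range. It passed with ESCC thinned (1.01, adjusted p = 0.0369), in the young EoE mice alone (1.46) and among cells within the limits (1.80), whereas in the old EoE mice alone the sign turned (-0.20). Krtdap, a secreted protein of differentiating keratinocytes, stood at 4022, 5515, 2258 and 1905 CPM against 2932, 1908 and 2783 CPM (log2 fold change 0.03, adjusted p = 0.936). Within the limits Krtdap was higher in EoE (1.15), and in the old EoE mice alone its value was -0.70.

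Of other suprabasal proteins, some were lower in EoE over all cells. Fabp5, an epidermal fatty acid binding protein, stood at 758, 960, 487 and 487 CPM against 4171, 4785 and 5516 CPM (log2 fold change -3.23, adjusted p = 1.558e-07). Atp1b3, a sodium pump subunit used as a suprabasal marker, differed less (-0.95, adjusted p = 6.915e-04), with both groups below the controls. Dmkn, a secreted protein of the upper layers, passed at -1.24, with old EoE mice at 292 and 334 CPM and young ones at 1166 and 1203 CPM, near the 1609, 1192 and 1282 CPM of ESCC. Dmkn no longer passed among cells within the limits (-0.06). Calml3, a calmodulin-like protein of differentiated epithelium, was higher in EoE at 1434, 1587, 536 and 820 CPM against 127.6, 44.5 and 41.5 CPM (3.57, adjusted p = 1.227e-05). Of the 12 genes listed for suprabasal differentiation, 9 were tested, 2 were higher (Krt4 and Calml3), 4 were lower and 3 did not pass, with a median of 0.02. Among cells within the limits the balance turned to 5 higher and 2 lower. Over all cells, 1 of the 8 past the required level in both groups was higher and 4 were lower. Of all such genes 23.4% were higher and 32.3% lower.

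**Figure D3:**
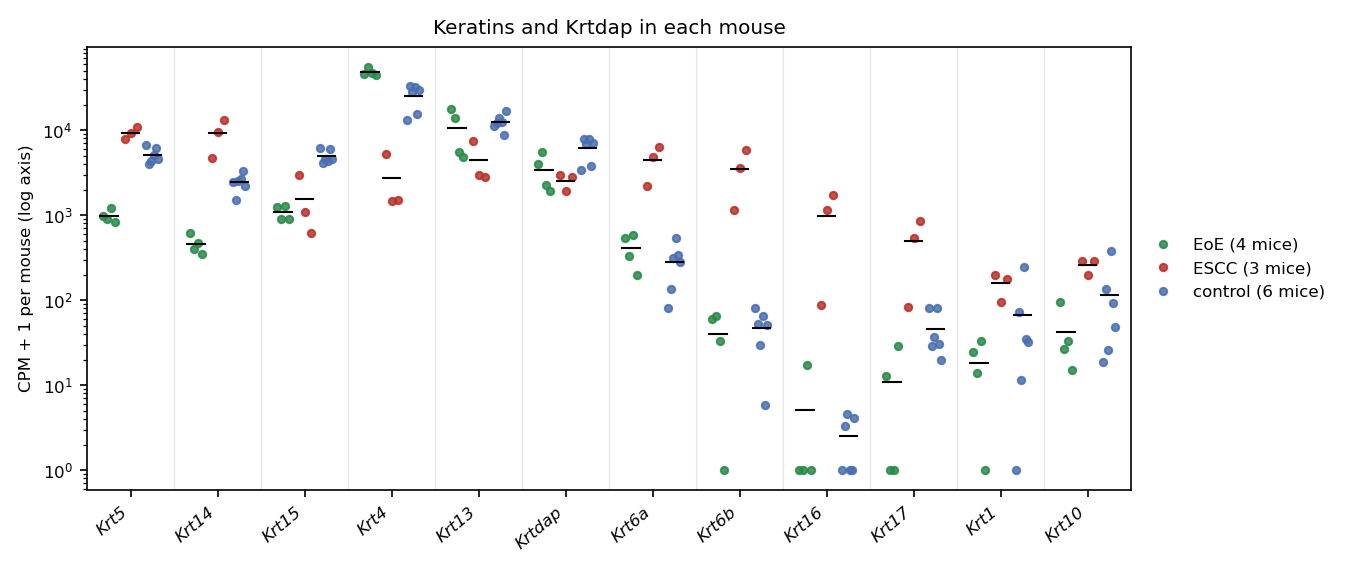
CPM + 1 per mouse (log axis) of keratins and Krtdap in 4 EoE, 3 ESCC and 6 control mice, with a black bar at each mean and mice without a UMI at 1. Krt5 and Krt14 were lowest in EoE and highest in ESCC, Krt4 the reverse, and Krt6a, Krt6b, Krt16 and Krt17 were high in ESCC.

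Genes of the cornified envelope were higher in EoE. Cornifelin (Cnfn) stood at 3264, 3903, 1803 and 1251 CPM in EoE and at 244, 51.3 and 125 CPM in ESCC (log2 fold change 3.79, SE 0.52, adjusted p = 2.017e-05), with both groups reaching into the control range of 187 to 2462 CPM. Loricrin (Lor), a major envelope protein of cornified epithelia, stood at 116.6, 255.9, 129.9 and 27.8 CPM against 3.87, 2.82 and 0.472 CPM (5.46, adjusted p = 5.775e-06). Periplakin (Ppl) and envoplakin (Evpl), which tie the envelope to desmosomes and keratin filaments, had log2 fold changes of 3.31 and 1.16. All 6 tested members of 24 listed were higher, with a median of 3.27. Of these 6, 0 reached the required level in ESCC, so the count follows from the filter and is no support. The other members were too low to test.

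The SPRR genes were not alike. Sprr3 stood at 2250, 2252, 292 and 292 CPM in EoE and at 198, 46.8 and 69.4 CPM in ESCC (3.22, adjusted p = 0.00116). Sprr1a stood at 793, 1344, 146 and 69.5 CPM against 71.1, 60.3 and 99.1 CPM (2.57, adjusted p = 0.00169), so that the young EoE mice stood above ESCC and old EoE mouse 12 lay inside its range. In the old EoE mice alone neither gene passed (1.10 for Sprr3 and 0.04 for Sprr1a). Sprr2d went the other way and was not tested, since 1 ESCC mouse lay below the required level. It had 0 UMIs in EoE and stood at 1.55, 228.1 and 534 CPM in ESCC, which makes it at least 29.4-fold lower in EoE.

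Asprv1, Psapl1 and Elovl4 were also higher in EoE. Asprv1, a protease that processes filaggrin, stood at 1096, 1612, 633 and 695 CPM in EoE and at 30.2, 11.8 and 8.97 CPM in ESCC, below the control range of 178 to 718 CPM (log2 fold change 5.56, adjusted p = 2.082e-07). Psapl1, a saposin-like protein, stood at 2273, 3212, 1494 and 1126 CPM against 147, 63.1 and 89.2 CPM (3.95, adjusted p = 1.412e-06). Elovl4, which builds very long fatty acids of barrier lipids, stood at 1026, 1574, 487 and 765 CPM against 110.6, 71.0 and 92.1 CPM (3.01, adjusted p = 4.003e-06). In all 3 genes the EoE mice lay above every ESCC mouse. Krt78, a keratin of differentiated esophageal cells that was too low to test, held 18 UMIs in EoE and 9 in ESCC despite the difference in depth.

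Injury keratins, which keratinocytes switch on in wounds and in rapidly growing epithelium, were higher in ESCC. Krt6a stood at 536, 333, 585 and 195 CPM in EoE and at 2200, 4884 and 6264 CPM in ESCC (log2 fold change -3.84, SE 0.39, adjusted p = 1.18e-06), with EoE mice 10 and 12 inside the control range of 80.1 to 536 CPM and mice 9 and 11 at or above its top. Krt6b stood at 58.3, 64.0, 32.5 and 0 CPM against 1140, 3610 and 5798 CPM (-6.84, adjusted p = 4.665e-07). Krt6a and Krt6b are near-identical and their exons are marked as overlapping others, so reads may be split between them. Their acidic partners Krt16 and Krt17 were not tested because mouse 8M stood too low. Krt16 had 1 UMI in EoE and 5807 in ESCC, where the mice stood at 87.4, 1137 and 1735 CPM, a ratio of 0.0030 (95% counting interval 7.602e-05 to 0.0167). Counting intervals and bounds cover counting error only. Krt10, a keratin of cornifying skin, was also lower in EoE (-2.97), with ESCC inside the control range of 17.8 to 373 CPM and EoE mouse 12 below it at 13.9 CPM.

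Alarmins and antimicrobial proteins split. S100a8 and S100a9, the subunits of calprotectin, had 0 UMIs in EoE. In ESCC, S100a8 stood at 19.3, 1480 and 1708 CPM and S100a9 at 9.28, 1263 and 1681 CPM, with mouse 8M far below the other ESCC mice. They were not tested, and were at least 119.8-fold and 111.2-fold lower in EoE. S100a11, another S100 protein of squamous cells, stood at 46.6, 12.8, 16.2 and 13.9 CPM in EoE and at 1018, 1075 and 1054 CPM in ESCC (-5.87, adjusted p = 4.489e-09). Opposite to these, the beta-defensin Defb4 stood at 583, 1024, 97.4 and 153 CPM in EoE against 10.1, 3.38 and 10.9 CPM in ESCC (5.47, adjusted p = 4.742e-06), and the leukocyte protease inhibitor Slpi at 1947, 2201, 585 and 431 CPM against 183, 116 and 125.1 CPM (2.80, adjusted p = 1.472e-04). For both, the young EoE mice stood above the old ones. Of 13 listed members in the files, 5 were tested, 2 were higher and 3 lower. Only 1 of the 5 reached the required level in both groups, and it was lower, where 32.3% of all such genes were. Defb4 and Slpi were tested through EoE alone, where 78.9% of all such genes were higher. S100a11 was tested through ESCC alone, where 95.8% were lower, so the split is no support.

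Protease inhibitors of the superficial layers also split. Serpinb3a, of the squamous cell carcinoma antigen family, stood at 1982, 2265, 536 and 751 CPM in EoE and at 165, 187 and 302 CPM in ESCC (2.28, adjusted p = 3.403e-04). Serpinb12 passed at 1.78, but not without EoE mouse 9 or 10 (1.53 and 1.38) nor in the old EoE mice alone (0.34). Cystatin B (Cstb), an inhibitor of cathepsins, was lower in EoE at 70.0, 64.0, 32.5 and 69.5 CPM against 621, 553 and 646 CPM (-3.73, adjusted p = 4.239e-08). Spink5, which encodes the kallikrein inhibitor LEKTI, stood at 1574, 2034, 341 and 320 CPM against 636, 689 and 1016 CPM, with the young EoE mice above and the old EoE mice below every ESCC mouse, and did not pass (0.07, adjusted p = 0.905). Of 16 listed, 8 were tested, 3 were higher, 4 lower and 1 did not pass. Within the limits Spink5 passed (1.37, adjusted p = 0.00295), and 4 were higher and 3 lower. Over all cells only 2 of the 8 reached the required level in both groups, 1 of them higher and 0 lower. Of all such genes 23.4% were higher and 32.3% lower.

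The NRF2 pathway, through which the transcription factor encoded by Nfe2l2 raises enzymes against electrophiles and oxidants, was lower in EoE across its targets. Of 32 listed genes 23 were tested, 22 were lower in EoE and 0 higher, with a median log2 fold change of -2.92. Of the 11 members past the required level in both groups, 10 were lower, where 32.3% of all such genes were. Of the 10 without a mark, 9 were lower. The list took 1.01% to 1.11% of UMIs in EoE, 2.71% to 3.29% in ESCC and 1.89% to 2.18% in controls.

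Gsta4, a glutathione transferase for lipid aldehydes, stood at 513, 665, 455 and 459 CPM in EoE, below the controls (1853 to 2872 CPM), and at 3308, 2976 and 3688 CPM in ESCC, above them (-3.06, SE 0.22, adjusted p = 4.066e-08). Nqo1, the quinone reductase used as a readout of the pathway, stood at 152, 166, 244 and 83.4 CPM against 520, 355 and 406 CPM (-1.83, adjusted p = 5.66e-05), with all ESCC mice above the control range of 145 to 224 CPM, EoE mouse 11 above it and EoE mouse 12 below it. The glutathione synthesis genes Gclc and Gclm were lower at -1.71 and -1.45, Gpx2, a glutathione peroxidase of epithelia, at -3.63, and Gsto1, a glutathione transferase, at -1.57. Txn1, encoding thioredoxin, differed least of these (-0.92, adjusted p = 0.00119). Nfe2l2 itself stood at 583, 768, 698 and 945 CPM against 699, 597 and 614 CPM, overlapped and did not pass (-0.17, adjusted p = 0.480). Slc7a11, the cystine importer, stood at 11.7, 51.2, 0 and 13.9 CPM against 278, 542 and 791 CPM (-5.12, adjusted p = 2.792e-06). Aldh3a1, an aldehyde dehydrogenase that is also an aryl hydrocarbon receptor target, was lower at -1.59, with EoE mouse 9 at 1527 CPM inside the ESCC range, and did not pass within the limits (-0.55).

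The promoters of these genes were searched for TGANTCAGC, the core of the antioxidant response element that NRF2 and small Maf proteins bind and that holds an AP-1 site, on both strands of the 250 bases before the start. In RefSeq (GRCm38.p6), 335 of 32851 promoters held it (1.02%), among them 2 of 23 promoters of the lower NRF2 genes (8.7%) and 1 of 4 promoters of the higher cornified envelope genes (25%). The 100 bases around each of these 3 matches are shown, with the match in capitals, because they place the same letters before genes that moved in opposite directions. Prdx1, a peroxiredoxin, and Gstp1, a glutathione transferase, were lower and Sprr1a higher in EoE. They lie at chr4:116685426-116685525 (plus strand), chr19:4037927-4038026 (minus) and chr3:92485970-92486069 (minus).
Prdx1: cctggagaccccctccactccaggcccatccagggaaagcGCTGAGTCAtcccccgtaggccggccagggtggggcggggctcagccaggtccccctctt
Gstp1: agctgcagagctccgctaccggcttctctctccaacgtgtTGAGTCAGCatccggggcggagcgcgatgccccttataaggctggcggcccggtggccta
Sprr1a: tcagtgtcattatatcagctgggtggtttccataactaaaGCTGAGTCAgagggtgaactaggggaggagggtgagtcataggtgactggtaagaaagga

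Prdx1 stood at 128, 102, 81.2 and 27.8 CPM in EoE and at 1086, 1068 and 1141 CPM in ESCC (-4.06, adjusted p = 6.115e-08). Gstp1 had 1 UMI in EoE and stood at 561, 333 and 243 CPM in ESCC, a ratio of 0.0095 (95% counting interval 2.410e-04 to 0.0531). Both share sequence with another gene. A match in these letters is a description and does not show that a factor binds there.

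**Figure D4:**
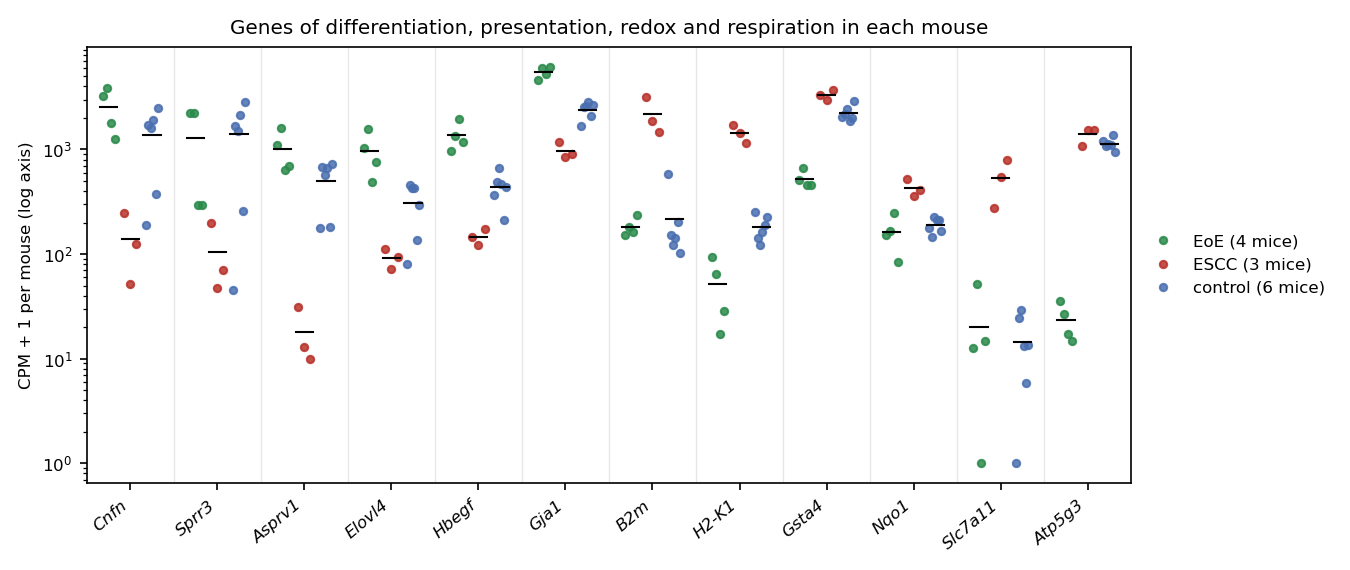
CPM + 1 per mouse (log axis) of genes of differentiation (Cnfn, Sprr3, Asprv1, Elovl4), growth factor and gap junction genes (Hbegf, Gja1), antigen presentation (B2m, H2-K1), NRF2 targets (Gsta4, Nqo1, Slc7a11) and respiration (Atp5g3) in 4 EoE, 3 ESCC and 6 control mice, with a black bar at each mean. The first 6 genes were higher in EoE than in ESCC and the last 6 lower, with no overlap between the groups.

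Genes of growth and the cell cycle were mostly too low to test. Of 26 genes of S phase and DNA replication 1 was tested, Rrm1 of ribonucleotide reductase, which was lower in EoE at 23.3, 0, 48.7 and 27.8 CPM against 169, 185 and 189 CPM (-3.33, adjusted p = 5.523e-06). The S phase list took 0.0346% to 0.0666% of UMIs in EoE and 0.123% to 0.165% in ESCC. Of 28 genes of G2/M phase and mitosis 10 were tested, 1 was higher, 3 were lower and 6 did not pass. Ube2c, which hands ubiquitin to mitotic substrates, was lower (-1.34, adjusted p = 7.586e-04), whereas Kif23, a kinesin of cytokinesis with a sequence shared by another gene, was higher (1.93, adjusted p = 7.29e-06). Mki67, encoding the proliferation antigen Ki-67, stood at 93.3, 128, 130 and 209 CPM against 261, 188 and 114 CPM and overlapped. It passed narrowly (-0.83, adjusted p = 0.0493), and it did not without any 1 of EoE mice 9, 10 and 11 or ESCC mice 8M and 17F (-0.51 to -0.84), with ESCC thinned (-0.75) or within the limits (-0.97). Top2a, encoding a topoisomerase of dividing cells, did not pass (-0.68, adjusted p = 0.0550), but did within the limits (-1.28).

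Growth regulators and cell cycle inhibitors differed in both directions. Myc stood at 81.6, 89.6, 32.5 and 97.3 CPM in EoE and at 274, 161 and 188 CPM in ESCC (-1.83, adjusted p = 2.737e-04), and Ccnd1, encoding cyclin D1, had a log2 fold change of -2.51. Ccnd2, encoding cyclin D2, stood at 396, 422, 1575 and 1293 CPM against 461, 347 and 318 CPM, with only the old EoE mice above ESCC, and did not pass (0.87, adjusted p = 0.0672). It passed with ESCC thinned (0.92) and in the opposite direction within the limits (-1.39). The inhibitor Cdkn1b (p27) stood at 373, 729, 650 and 487 CPM in EoE, above the control range of 71.0 to 131 CPM, and at 74.2, 43.4 and 44.4 CPM in ESCC (2.98, SE 0.29, adjusted p = 8.453e-07). Cdkn1a (p21) stood at 1166, 1164, 747 and 709 CPM against 755, 460 and 565 CPM and did not pass (0.28, adjusted p = 0.332), but did within the limits (1.11), while its sign turned in the old EoE mice alone (-0.11). Cdkn2a, which encodes p16 and p19Arf, had 0 UMIs in EoE and 143 in ESCC, at least 2.73-fold lower. Of 25 p53 targets and senescence genes 7 were tested and 2 were higher, Cdkn1b and Btg2 (1.14). A further 3 were lower, Sfn and Phlda3 (-2.29 and -1.21) among them, and 2 did not pass.

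Immediate early genes, transcription factors induced within minutes by growth factors or stress, moved in both directions. Of 22 listed 18 were tested, 8 were higher, 5 lower and 5 did not pass, with a median of 0.46. Among the 14 past the required level in both groups, 7 were higher, where 23.4% of such genes were, and 2 were lower. Ier2 stood at 793, 934, 1819 and 1390 CPM in EoE and at 317, 172 and 194 CPM in ESCC (2.03, adjusted p = 6.483e-05). Egr3 stood at 70.0, 179, 227 and 125.1 CPM against 6.96, 7.32 and 6.61 CPM (3.97, adjusted p = 1.287e-06), and its relative Egr1 had a log2 fold change of 0.78. Klf4, a factor of squamous differentiation, stood at 5981, 3877, 2290 and 2920 CPM, above the controls (857 to 1614 CPM), against 1003, 776 and 800 CPM in ESCC (1.73, adjusted p = 1.335e-04).

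Members of AP-1 itself went different ways. Fos was higher (0.71, adjusted p = 0.0190), but not without EoE mouse 12 (0.54) or ESCC mouse 17F or 17M (0.57 and 0.67), nor within the limits (0.42, adjusted p = 0.241). Jun was lower at the threshold (-0.57, adjusted p = 0.0499) with overlapping groups, and was lost without ESCC mouse 8M or EoE mouse 9, 10 or 12 (-0.31 to -0.55) and with ESCC thinned (-0.42). Junb stood at 221.5, 204.7, 162 and 208.6 CPM against 713, 595 and 604 CPM (-2.07, adjusted p = 1.436e-06), with both groups below the controls. Dusp1, a phosphatase that switches off MAP kinases, was lower as well (-2.88, adjusted p = 2.96e-06). Such genes also respond to tissue digestion, and the part of the digestion was not tested.

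Of 11 listed ligands, receptors and feedback genes of the EGF receptor family 3 were tested and all 3 were higher, 1 of them through its level in both groups. The others were tested through EoE alone, where 78.9% of all such genes were higher, against 23.4% of genes past the level in both groups. Hbegf, a ligand shed from keratinocytes, stood at 968, 1356, 1949 and 1168 CPM in EoE, above the controls (208 to 660 CPM), and at 143, 120 and 173 CPM in ESCC, below them (2.82, SE 0.27, adjusted p = 8.027e-07). Errfi1, which inhibits the receptor, had a log2 fold change of 1.43. Dusp6, a phosphatase induced by ERK, was higher at 1.16 but turned to -0.68 among cells within the limits and was not called there. For the Notch pathway, Jag1, a ligand, was higher (0.66, adjusted p = 0.0271) and Hes1, a target, lower (-2.48, adjusted p = 6.857e-06). Jag1 was lost without EoE mouse 9 or 10 or ESCC mouse 8M or 17F (0.46 to 0.68), with ESCC thinned (0.57) and within the limits (0.07).

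Nuclear genes of respiration were lower in EoE. Of 80 nuclear genes of oxidative phosphorylation 56 were tested, 52 were lower, 2 higher and 2 did not pass, with a median of -2.62. All 19 tested members without a mark were lower, and 10 of 12 past the required level in both groups, where 32.3% of all such genes were. The list took 0.538% to 0.681% of UMIs in EoE, 2.18% to 2.24% in ESCC and 1.74% to 2.04% in controls. Atp5g3, which encodes the ring subunit of ATP synthase, stood at 35.0, 25.6, 16.2 and 13.9 CPM in EoE and at 1086, 1536 and 1545 CPM in ESCC (-6.27, SE 0.32, adjusted p = 2.342e-09), with ESCC overlapping the controls. Cox8a, a subunit of cytochrome oxidase, stood at 373, 294, 439 and 195 CPM against 1349, 1522 and 1418 CPM (-2.54, adjusted p = 6.265e-07).

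The genes of the mitochondrial genome did not follow the nuclear ones. CYTB, of complex III, was lower (-2.15, adjusted p = 1.618e-06), whereas ND5 and ND6, of complex I, were higher (1.06 and 1.95), with ND6 at 14002, 17670, 25402 and 31991 CPM against 4455, 4361 and 4259 CPM. ND5 and ND6 lie on opposite strands and overlap, so their reads may be shared. In all, 3 of 7 tested were higher and 3 lower (2 and 4 within the limits), and the list took 3.60% to 7.94% of UMIs in EoE and 3.88% to 4.18% in ESCC.

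Of 18 glycolysis genes 9 were tested and 8 were lower, with a median of -2.73. Of the 9, 0 reached the required level in EoE and ESCC both, so the count follows from the filter and is no support. Pkm, pyruvate kinase, had a log2 fold change of -4.19 and Ldha, lactate dehydrogenase, -2.73, while Hk2, hexokinase, did not pass (0.39, adjusted p = 0.276). Hk2 was the only tested member without a mark. Gapdh, which has many pseudogenes, had 3 UMIs in EoE and stood at 1532, 1688 and 1797 CPM in ESCC, but the controls also stood at 0 to 4.68 CPM. Of 15 hypoxia genes 3 were tested and all 3 were lower, again 0 of them at the required level in both groups, and with ESCC thinned 1 stayed called. Hif1a, their regulator, passed at -2.62 with overlapping groups, as ESCC mouse 8M stood at 127 CPM and the other ESCC mice at 470 and 683 CPM.

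Ribosomal protein genes took 2.09% to 2.82% of UMIs in EoE, 16.1% to 19.3% in ESCC and 5.91% to 9.15% in controls. Of 84 listed 76 were tested, 74 were lower and 2 higher, with a median of -4.76, and all but 1 of the 76 carry a mark. Of the 27 past the required level in both groups 26 were lower. Rplp1, of the stalk of the large subunit, stood at 152, 243, 390 and 264 CPM in EoE and at 10244, 11108 and 11421 CPM in ESCC (-5.81, adjusted p = 2.342e-09). Rps14 had a log2 fold change of -5.33, whereas Rpl8 was higher at 4290, 4504, 9696 and 8342 CPM against 2057, 1999 and 1928 CPM (1.35, adjusted p = 0.00101), and was lost within the limits (0.55). Among 29 of 35 translation factors and mTOR genes tested, 22 were lower, 0 higher and 7 did not pass, and of 19 past the required level in both groups 12 were lower. Eef1a1, which brings aminoacyl-tRNA to the ribosome, had -2.16, and Eif3a, an initiation factor, did not pass (0.38, adjusted p = 0.0964), but was higher with ESCC thinned (0.70, adjusted p = 0.0130).

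Of 14 proteasome core subunits 12 were tested and all 12 were lower, with a median of -2.23, and the 4 without a mark were among them. Only 2 of the 12 reached the required level in both groups, and among all genes tested through ESCC alone 95.8% were lower. Heat shock genes were lower in 9 of 16 tested, with 1 higher, and 0 of the 7 without a mark were lower. Of the 11 past the required level in both groups 6 were lower, where 32.3% of all such genes were. In the list of serine synthesis and the ATF4 stress response, 4 of 5 tested genes were lower and 1 higher. Only 2 of the 5 reached the required level in both groups, 1 higher and 1 lower.

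**Figure D5:**
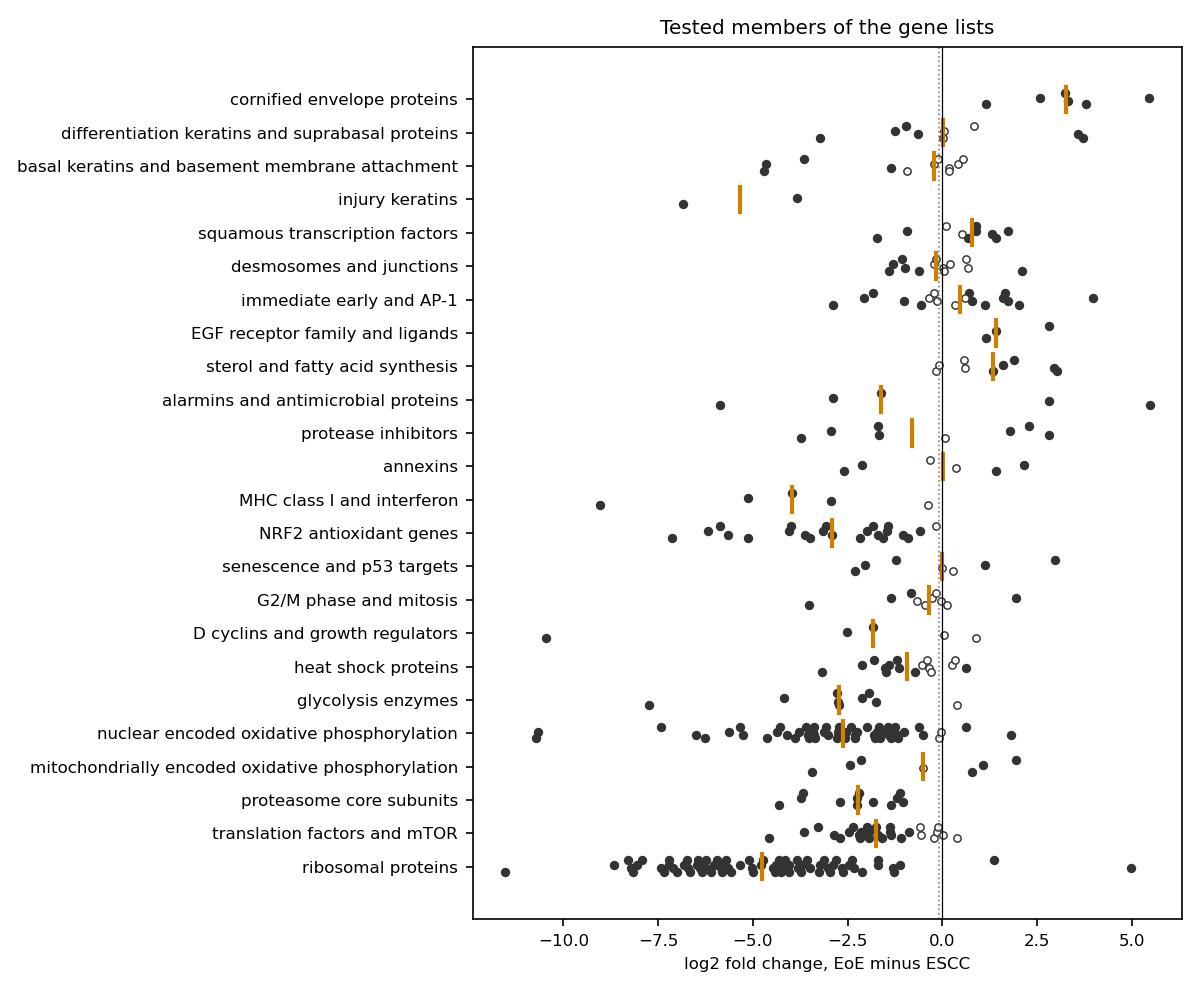
Log2 fold change, EoE minus ESCC, of each tested gene in 24 of the lists, filled where it passed the test and open where it did not, with an orange bar at the list's median and a dotted line at the median of all tested genes (-0.10). Ribosomal protein, NRF2, respiration and proteasome genes lie to the left, cornified envelope, EGF receptor and sterol genes to the right, and keratins of the layers on both sides. Genes tested through EoE alone or ESCC alone, which had to differ, are included.

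Those genes of antigen presentation that could be tested were mostly lower in EoE. B2m, the light chain of MHC class I, stood at 152, 179, 162 and 236 CPM in EoE, inside the control range (101 to 587 CPM), and at 3150, 1880 and 1483 CPM in ESCC, above it (-3.98, SE 0.31, adjusted p = 9.729e-08). The heavy chain gene H2-K1 stood at 93.3, 64.0, 16.2 and 27.8 CPM against 1693, 1432 and 1159 CPM (-5.14, adjusted p = 2.661e-08), and shares sequence with other class I genes. The interferon-induced membrane protein gene Ifitm3 stood at 268, 243, 195 and 209 CPM against 912, 1613 and 1524 CPM (-2.95, adjusted p = 2.476e-07). H2-Eb1, of MHC class II, had 3 UMIs in EoE and stood at 197, 332 and 237 CPM in ESCC, a ratio of 0.0388 (95% counting interval 0.0080 to 0.114). Of 24 class I and interferon genes 5 were tested, 4 were lower and 1 did not pass. Only 2 of the 5 reached the required level in both groups and both were lower, where 32.3% of all such genes were. Among all genes tested through ESCC alone 95.8% were lower. The 8 class II genes together held 15 UMIs in EoE and 4273 in ESCC, and 1 of them was tested, through its level in ESCC alone.

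Leukocyte markers held few UMIs in both groups. The 10 eosinophil and mast cell markers in the files held 0 of the 297425 UMIs in EoE and 11 in ESCC. In EoE 0 UMIs do not show absence, since genes of wide expression such as Cdk4 and Cox5a also held 0 UMIs there. Both share sequence with other genes. Their means in ESCC were 222 and 258 CPM, where 3 UMIs over the EoE group correspond to 10.1 CPM. The part of depth and of read assignment in these values was not tested. The 18 other leukocyte markers took 0.0012% to 0.0081% of UMIs in EoE, 0.0104% to 0.0178% in ESCC and 0 to 0.0034% in controls, with 769 UMIs for the whole list in ESCC, 167 of them on Cd52 and 123 on Lyz2, against 9 in EoE. By markers 22 ESCC cells and 2 EoE cells were called non-epithelial. Fibroblast markers took 0.0102% to 0.0236% in EoE and 0.0070% to 0.0156% in ESCC, muscle markers 0 to 0.0012% and 0.0021% to 0.0037%, and erythrocyte and columnar markers held 0 and 3 UMIs in EoE. Among endothelial markers, Pecam1 alone was tested and was higher in EoE (5.53), but it shares sequence with another gene and the remaining endothelial markers together held 2 UMIs there. The labelled epithelium was present in both groups, as Krt5, Krt14, Krt4 and Krt13 had UMIs in every mouse, and the columnar keratins Krt8 and Krt18 held 0 UMIs in EoE and 0 and 1 in ESCC.

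Signals of type 2 inflammation, the process that defines EoE, were mostly below the depth of the libraries. Of 24 listed genes in the files 3 were tested. Jak1, a kinase of the cytokine receptors, was higher in EoE at 571, 742, 796 and 653 CPM against 240, 255 and 214 CPM (1.14, adjusted p = 1.558e-04). Chil4, a chitinase-like protein of type 2 inflammation in rodents, was lower in EoE at 70.0, 25.6, 0 and 0 CPM against 197, 535 and 430 CPM (-4.25, adjusted p = 2.282e-05). Socs3, a feedback inhibitor, did not pass (-0.29, adjusted p = 0.217), but was lower within the limits (-1.77). Il33, an alarmin cytokine of epithelial nuclei, was not tested and stood at 256.5, 281.5, 97.4 and 0 CPM in EoE and at 5.41, 8.45 and 9.44 CPM in ESCC, so that EoE mouse 12 lay below and the other EoE mice above ESCC. Ccl11, the eosinophil attractant eotaxin, had 0 UMIs in EoE and 123 in ESCC, at least 2.35-fold lower. Of 16 epithelial cytokines 0 were tested, with 34 UMIs in EoE and 1007 in ESCC, and 1 of 9 GM-CSF pathway genes was, Pim1, a kinase induced by STAT5 (0.95, adjusted p = 0.00182).

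Targets of the glucocorticoid receptor, which bears on a disease treated with topical steroids, gave 3 higher, 3 lower and 2 not passing of 8 tested, and 2 higher and 5 lower within the limits. The metallothioneins, which bind zinc and also answer to metals, split. Mt2 stood at 4255, 4594, 6724 and 4449 CPM in EoE and at 1007, 812 and 781 CPM in ESCC (2.13, adjusted p = 2.927e-06), both above the controls (49.7 to 214 CPM), whereas Mt1 stood at 1026, 883, 1104 and 862 CPM against 2111, 1725 and 1861 CPM (-1.38, adjusted p = 2.121e-05), both below. Mt2 shares sequence with another gene, and it did not pass within the limits (0.63). Of aryl hydrocarbon receptor targets 3 of 11 were tested, 2 were lower and 1 did not pass.

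Junctions and squamous transcription factors were mixed. Gja1, encoding connexin 43 of gap junctions, stood at 4640, 6014, 5230 and 6159 CPM in EoE, above the controls (1664 to 2846 CPM), and at 1167, 846 and 899 CPM in ESCC, below them (2.10, SE 0.23, adjusted p = 2.106e-06). The desmosome genes Pkp1, Dsc3 and Dsg3 were lower at -1.30, -0.98 and -1.07, of which Pkp1 and Dsg3 were lost within the limits (-0.43 and -0.84). Of 13 tested junction genes 1 was higher, 5 lower and 7 did not pass, where 39.4% of all tested genes were lower. Within the limits the balance turned to 4 higher and 1 lower, where 454 of all 1906 tested genes were higher and 720 lower. Klf3, Ehf and Zfp750, factors of late differentiation, were higher at 1.42, 0.90 and 0.89, while Trp63, the factor of basal identity, and Pitx1 were lower at -0.93 and -1.72. With ESCC thinned Trp63 did not pass (-0.58). Of 10 tested squamous factors 6 were higher, 2 lower and 2 did not pass, and within the limits 4 were higher and 3 lower. Over all cells, 3 of the 7 past the required level in both groups were higher and 2 lower. Of all such genes 23.4% were higher and 32.3% lower.

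Surface and membrane proteins and lipid genes completed the lists. The annexins Anxa5 and Anxa4 were higher (1.41 and 2.15) and Anxa1 and Anxa2 lower (-2.60 and -2.13), with Anxa1, which dampens inflammation, at 361, 499, 292 and 334 CPM against 1459, 1674 and 2020 CPM (adjusted p = 3.558e-07). Among Ly6 family genes, Ly6d and Ly6a were lower (-2.36 and -3.07) and Ly6g6c higher (3.73). In sterol and fatty acid synthesis, 5 of 9 tested genes were higher, 0 lower and 4 did not pass, with a median of 1.33, and 0 of the 2 at the required level in both groups were higher. Insig1, a brake on sterol synthesis, had a log2 fold change of 2.94, and Hmgcs1, an early enzyme, did not pass (0.59, adjusted p = 0.0567), but did within the limits (1.02). Of 27 invasion and mesenchymal genes in the files 3 were tested, with Sparc, a matrix protein, higher (2.74) and the matrix protein gene Tgfbi and the protease gene Mmp14 lower (-4.59 and -4.19), all 3 with shared sequence. Nuclear long RNAs gave 2 higher and 1 lower of 3 tested, and 0 higher and 2 lower within the limits.

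The genes with the largest differences were chosen as the 12 per direction with the largest absolute log2 fold change among those past the test, without overlap, with a mean log2 CPM of at least 6. They also had to pass in the same direction with ESCC thinned and keep their direction within the limits. Unnamed gene models, pseudogenes by symbol, Xist, Tsix and genes of the Y chromosome were left out. None of the genes so chosen reached the required level in both groups. Of all genes tested through EoE alone 78.9% were higher, and of those tested through ESCC alone 95.8% were lower. Such genes had to differ, so that their calls and adjusted p are no support. Olfr160, an olfactory receptor gene, stood at 490, 589, 503 and 459 CPM in EoE and had 0 UMIs in ESCC and controls, at least 884-fold higher in EoE. Prtg, encoding protogenin of the embryo, had at least a 680-fold higher level, again with 0 UMIs elsewhere. Igf2bp3, an RNA binding protein of embryo and tumors, stood at 606, 768, 796 and 806 CPM against 1.55, 1.13 and 1.89 CPM (8.37, adjusted p = 5.609e-10). Of these 3, Olfr160 and Igf2bp3 share sequence with other genes and Prtg holds a pseudogene. Other genes of this direction were Olfr157, Dmtn, St6galnac6, Thg1l, Ddhd1, Trpv2, Unc13d and Gpr179, of which Olfr157, Dmtn, St6galnac6, Thg1l and Gpr179 carry no mark.

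In the lower direction 11 of the 12 genes had 0 UMIs in EoE. Rpl36 was at least 44.9-fold lower, Igfbp7, which binds insulin-like growth factors, 44.9-fold, LOC105244208 35.5-fold, Ndufb6 of complex I 26.5-fold, Cox5a of complex IV 25.5-fold, Car2, a carbonic anhydrase, 24.5-fold and the kinase gene Cdk4 22.4-fold. Fxyd3, Snhg6, Ost4 and Sh3bgrl3 followed with bounds of 21.3, 16.4, 15.1 and 14.0. The 12th, the class I heavy chain gene H2-D1, had 1 UMI in EoE and 7136 in ESCC, a ratio of 0.0024 (95% counting interval 6.187e-05 to 0.0136). LOC105244208 is not in GENCODE M21 and could not be marked, and 10 of the 12 share sequence with other genes. Car2 carries no mark and stood at 148, 283 and 278 CPM in ESCC and 0 to 66.7 CPM in controls. Rpl36 stood at 4.94 to 26.7 CPM and LOC105244208 at 0 to 2.47 CPM in controls. In these genes, Snhg6 and H2-D1 all ESCC mice lay above the control range. In Igfbp7, Ndufb6, Cdk4 and Sh3bgrl3 ESCC overlapped the control range, and in Cox5a, Fxyd3 and Ost4 it lay below.

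A further 12 genes per direction without a mark were named after the values had been seen. They too were tested through EoE alone or ESCC alone and had to differ. Higher in EoE were also Pan2, Fcsk, Asprv1, Defb4, Cops7b, Psapl1 and Cnfn, with log2 fold changes from 6.92 for Pan2 to 3.79 for Cnfn. The lower ones began with Car2 and the actin binding gene Pfn1, which had 1 UMI in EoE against 242, 259 and 251 CPM in ESCC. Tmsb4x, encoding the actin sequestering thymosin beta 4, stood at 152, 89.6, 162 and 55.6 CPM in EoE and at 2398, 3282 and 3089 CPM in ESCC (-5.07, SE 0.29, adjusted p = 6.064e-09). Cbr3, a carbonyl reductase, stood at 11.7, 38.4, 0 and 13.9 CPM against 1198, 761 and 851 CPM (-6.19, adjusted p = 3.235e-08), Taldo1, of the pentose phosphate pathway, had -5.67 and Ndufa4, of the respiratory chain, -5.34. The remaining lower genes were Uqcr10, Csrp1, Atp5g3, Ppp2r1a, H2-Eb1 and Chit1.

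The control mice give each difference a position, although both comparisons with them use the same mice. Of the 650 genes higher in EoE, 359 had all EoE mice above the control range while ESCC overlapped it, 110 had EoE above and ESCC below, 88 had EoE overlapping and ESCC below, and 65 had both overlapping. Krt4, Hbegf, Gja1, Klf3 and Psapl1 lay on opposite sides of the controls. In 26 genes, Mt2 among them, both groups stood above. Of the 751 lower genes, 278 had EoE below and ESCC overlapping, 162 both overlapping, 126 EoE overlapping and ESCC above, 94 both below and 70 EoE below and ESCC above. B2m, Ifitm3, Nqo1 and Sfn belonged to those with all ESCC mice above the control range and EoE overlapping it, Anxa1, Col17a1, Hes1 and Tmsb4x to those with all EoE mice below it and ESCC overlapping it, and Krt14, Krt5, Gsta4 and S100a11 to those on opposite sides.

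Since depth differed, the ESCC counts were thinned 20 times to the EoE depth and tested again. Values given with ESCC thinned, here and elsewhere, are those of draw 1. In that draw 587 of the 650 higher genes were also called higher and all 650 kept their sign. Of the 751 lower genes 635 were also called lower there and 749 kept their sign. In every draw 420 and 505 were called. Among the cells within the study's limits, 410 of the 650 and 650 of the 751 were also called in the same direction.

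Within EoE, the 2 old mice were compared with the 2 young mice, with 2276 genes tested in a fit that also held the ESCC mice. Of these, 4 (0.176%) were higher and 12 (0.527%) lower in old mice. Gtf2i, a general transcription factor, stood at 70.0 and 76.8 CPM in the young and at 357 and 278 CPM in the old EoE mice (log2 fold change, old minus young, 2.13, adjusted p = 0.0293). Ccnd2 rose by 1.83 (adjusted p = 0.0232), and Rpl8 and D6Wsu163e were the others higher. Lars2, a mitochondrial tRNA synthetase, stood at 921 and 883 CPM in young and at 162 and 153 CPM in old mice (-2.49, adjusted p = 0.0105).

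Of the 12 genes lower in old mice, Sprr1a and Sprr1b are on the cornified envelope list. Sprr1b stood at 233 and 307 CPM in young and at 32.5 and 13.9 CPM in old mice (-3.54, adjusted p = 0.0407), and Sprr1a, Defb4, Spink5, Slpi and Dmkn had log2 differences of -3.32, -2.63, -2.43, -2.01 and -1.89. The rest were Hspb1, Ctnnbip1, Tmem234, Fam221b, Teddm3 and Lars2. With 2 mice an age these calls were few and unstable, with 0 to 3 genes called when any 1 EoE mouse was left out, and age cannot be told apart from other differences between these mice.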

How the data were processed

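Single cells of peeled esophageal epithelium were sequenced by inDrop. The deposited values are UMI counts per gene and cell, whole numbers without normalization. Per the submitters' processing notes and the study's methods, the authors extracted barcodes with UMI-tools 1.0.0, aligned reads to GRCm38 with STAR 2.7.3, assigned them with featureCounts, set limits on genes and UMIs per cell and drew 1500 cells per condition. Most deposited EoE cells lie below these limits. A low gene may thus go uncounted in EoE, and reads on shared sequence may be placed differently between libraries.

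Counts of all deposited cells were summed per mouse, over both libraries in ESCC, since libraries of a mouse are not replicates. Mice were taken as separate samples by their titles. The 4 EoE and 3 ESCC mice were compared by the quasi-likelihood test of edgeR 4.0.16 in R 4.3.3, after filterByExpr with a minimum of 10 UMIs and TMM scaling, at a Benjamini-Hochberg threshold of 0.05. Young and old EoE were compared as separate groups beside ESCC. DESeq2 1.42.0 was an alternative. Doublets were not called here, as cells were summed. CPM are UMIs divided by the mouse's total and scaled to 1e+06. Control mice set ranges only. ESCC counts were thinned to 74356 UMIs in 20 draws (seed 1). Where a group held 0 UMIs its level was set to 3 UMIs to bound the fold, and 95% Poisson intervals are given at 1 to 3 UMIs. A mark for shared sequence needed 10% of the 31-base words of the last 300 bases of a transcript in another gene (GENCODE M21). Cells were called non-epithelial with at least 3 UMIs, and more than their epithelial markers, on other lineages' markers.

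The genes named are the 12 per direction given by the rule in the text and members of the gene lists, which were written by hand as 46 lists, with 24 symbols not among the listed genes. The comparison, the lists and the genes were chosen with earlier results of these data known. The fit was tested on simulated data. Python 3.11.15 with numpy 2.4.6, pandas 2.3.3, scipy 1.17.1 and matplotlib 3.10.9 was used. Populations, pseudotime and images were not used here. Some genes that the rule for named genes selected are not reported here.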

Additional observations from a re-analysis of the deposited data

Results flagged for a closer look

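Among 156 genes examined for an EoE mouse far from the other 3, 10 were found by Dixon's ratio. Where the other 3 mice held 0 UMIs, the ratio is fixed at its largest value whatever the count. This holds for Csrp1, H2-D1, Pfn1, Uqcr10, Rps29, Gstp1 and Ppp2r1a. The chance rate of about 1 in 20 does not apply to them. EoE mouse 9 stood apart with 11.7 CPM each of Csrp1, H2-D1, Pfn1 and Uqcr10, 23.3 CPM of Rps29 and 46.6 CPM of S100a11, in all of which the other EoE mice were lower. In EoE mouse 10, Gstp1 stood at 12.8 CPM where the others were at 0. In EoE mouse 11, Ppp2r1a stood at 16.2 CPM where the others were at 0, Cstb was low at 32.5 CPM and Mt2 high at 6724 CPM. Apart from Mt2 and S100a11, these values rest on 1 or 2 UMIs.

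Old and young EoE mice differed by edgeR's quasi-likelihood test in genes that the comparison with ESCC also used. On the log2 scale, old minus young, the differences were 1.83 for Ccnd2, 2.13 for Gtf2i, 1.52 for D6Wsu163e, 1.06 for Rpl8, -1.89 for Dmkn, -2.01 for Slpi, -2.43 for Spink5, -2.49 for Lars2, -2.63 for Defb4 and -3.32 for Sprr1a. Each rests on 2 mice against 2, and both mice of an age lay on the same side of the other pair in each gene.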

How the results depend on the processing

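The counts of 650 higher and 751 lower genes kept within 1.5 times under thinning of ESCC (614 and 638), without non-epithelial cells, with all 13 mice, with the EoE ages apart, in young or old EoE alone, with DESeq2's size factors or without factors, without ribosomal, mitochondrial and unnamed genes, with either ESCC library, under DESeq2 (681 and 778), and without any 1 mouse (607 to 657 and 715 to 766). They moved to 1390 and 2958 with no filter beyond 1 UMI, to 1282 and 1813 with at least 10 UMIs at the EoE depth, and to 252 and 277 when marked genes were left out, which was added after seeing the data and left 772 genes. The share higher among called genes was 46.4%, against 54.1% without factors beyond the total (787 and 667) and 38.7% among cells within the limits (454 and 720, median -0.31). Between old and young EoE, the 16 genes became 103 with the 4 EoE mice alone in the fit, 44 under DESeq2 and 1 within the limits, and 0 to 3 without any 1 EoE mouse, where edgeR gave 238 to 274 genes at an unadjusted p under 0.05. No paired analysis was possible because EoE and ESCC mice share no replicate number.

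Of 153 named genes past the threshold, 152 kept their direction under every alternative, and Dusp6 turned to -0.68 within the limits. For the genes named by the largest fold, the rule itself required the same direction with ESCC thinned and within the limits. The alternatives also reuse the mice of the main test, so this count is no independent support. Of genes that had not passed, Ccnd2 turned to -1.39, Itga6 to -1.52 and Gtf2i to -0.026 within the limits. With thinning Nfe2l2 stood at 0.019, without factors at 0.12 and with at least 10 UMIs at 0.039. With the ages apart, Gtf2i stood at -0.15, Krtdap at -0.093 and Spink5 at -0.42. In young EoE alone Ccnd2 stood at -0.25 and Gtf2i at -1.17, and in old EoE alone Cdkn1a at -0.11, Krt13 at -0.20, Krtdap at -0.70, Lars2 at -1.20 and Spink5 at -1.65. Krtdap stood at -0.029 without ribosomal and like genes, at -0.16 with ESCC library 1 and at -0.056 without marked genes, where Spink5 stood at -0.013. Without any 1 mouse, Krtdap ranged from -0.31 to 0.25, Spink5 from -0.45 to 0.40 and Gtf2i from -0.30 to 0.46. Between old and young EoE, Ccnd2 turned to -0.49 and D6Wsu163e to -0.59 within the limits. The cause of these changes was not tested.

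Depth limits EoE: 1 UMI in a mouse is 11.7 to 16.2 CPM there and 0.472 to 0.773 CPM in ESCC, so low genes of EoE could not be tested. Age, duration of treatment and library depth differ with the disease and cannot be told apart from it.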
